A study of Mus musculus with 12 samples.

Results

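Integrins are receptors made of 1 α and 1 β subunit that fix cells to extracellular matrix and to other cells. Here 10 integrin genes, chosen by symbol from the 41128 genes of the deposited count and RPKM tables, were followed through induction of SOX7 in mouse haemogenic endothelium. The 6 leukocyte integrin genes were Itgam, Itgal, Itgax, Itgb2, Itga4 and Itgb7, and the 4 matrix-binding genes were Itga5, Itga6, Itgav and Itgb1. A filter on low counts left 9 of the 10 among the 15347 genes tested; Itgax failed it. After 24 h of doxycycline (Dox), Itgam, Itgb2 and Itgb7 stood at 0.233 to 0.260 times their untreated level and Itga4 at 0.453 times it, while no matrix-binding gene passed the test.

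Haemogenic endothelium is endothelium that gives rise to blood cells, and the series asks how SOX7, a transcription factor of early endothelium, bears on genes that RUNX1 controls in that step. The cells came from a derivative of the mouse embryonic stem cell line Ainv18, in which Dox switches on a transgene, here Sox7; the control cells carry it too. Per the labels, FLK1+ cells were isolated from embryoid bodies at day 3.5 and grown on gelatin for 48 h in medium with VEGF and IL6. The groups were then harvested after 6, 12 or 24 h with 1 µg/ml Dox, or after the same hours with none, and each of the 6 groups held 2 libraries. The labels do not say whether the 2 libraries of a group are separate cultures, so the p-values speak of the spread between these libraries, which may be technical. Dox-treated cells without the transgene were not analysed here, so effects of Dox itself and of SOX7 cannot be told apart.

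Leukocytes are set apart from most cells by the β2 subunit, which pairs with αL (LFA-1), αM (Mac-1, the myeloid marker CD11b) or αX (CD11c) and binds ICAMs and complement fragments. The α4 subunit pairs with β1 to bind VCAM1 and fibronectin, or with β7 to bind MAdCAM-1, and marks blood progenitors as well as mature white cells. The β1 subunit is made by nearly every nucleated cell, and with α5 it forms the fibronectin receptor, with α6 a laminin receptor. The αV subunit pairs with several β subunits and binds vitronectin and other proteins that carry the RGD motif. Endothelium uses α5β1, α6β1 and αV integrins to hold its basement membrane.

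Positions are those of the deposited tables, on build GRCm38. Itgam (ENSMUSG00000030786, chr7:128062640-128128160, plus strand) and Itgax (ENSMUSG00000030789, chr7:128129547-128150656, plus strand) are neighbours with 1386 bases between them. Itgal (ENSMUSG00000030830) lies on the same chromosome at chr7:127296260-127335137, plus strand. Itgb2 (ENSMUSG00000000290) lies at chr10:77530252-77565708, plus strand. Chromosome 2 holds the genes of 3 α subunits on its plus strand, Itga6 (ENSMUSG00000027111, chr2:71745616-71858416), Itga4 (ENSMUSG00000027009, chr2:79255426-79333123) and Itgav (ENSMUSG00000027087, chr2:83724397-83806916). Chromosome 15 holds Itgb7 (ENSMUSG00000001281, chr15:102215995-102231935) and Itga5 (ENSMUSG00000000555, chr15:103344289-103366763), both on the minus strand. Itgb1 (ENSMUSG00000025809) lies at chr8:128685654-128733200, plus strand. Cerkl overlaps Itga4 on the opposite strand; its mean count was 1.83 per library, so it could add little to Itga4.

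Promoter sequences show what stands before genes that fell with Dox and genes that did not. The RefSeq table (GRCm38.p6) gave windows from 250 bases before to 50 after the start for 7 of the 10 genes, by symbol; Itgal, Itgb2 and Itga6 are only named. The 250 bases before the start are printed for Itgam (chr7:128062390-128062639, plus strand) and Itga4 (chr2:79255176-79255425, plus strand), which fell at 24 h, and for Itga5 (chr15:103366792-103367041, minus strand) and Itgb1 (chr8:128685404-128685653, plus strand), which did not pass the test. They run 5′ to 3′ on the gene's strand, and capitals mark exact matches, on either strand, to the words searched. These were TGTGGT for RUNX factors, the purine box GAGGAA for ETS factors, AGATAA for the GATA family and ACAAT for SOX factors, each with its reverse complement.
Itgam: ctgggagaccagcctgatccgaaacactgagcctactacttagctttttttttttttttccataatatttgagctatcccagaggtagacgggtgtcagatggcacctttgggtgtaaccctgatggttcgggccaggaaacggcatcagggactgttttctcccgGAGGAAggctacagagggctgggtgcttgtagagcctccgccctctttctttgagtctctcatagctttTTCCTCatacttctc
Itga4: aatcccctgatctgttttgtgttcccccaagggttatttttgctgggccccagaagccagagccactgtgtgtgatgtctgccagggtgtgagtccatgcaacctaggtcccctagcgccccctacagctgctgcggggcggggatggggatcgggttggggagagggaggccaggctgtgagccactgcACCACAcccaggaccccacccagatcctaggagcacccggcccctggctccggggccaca
Itga5: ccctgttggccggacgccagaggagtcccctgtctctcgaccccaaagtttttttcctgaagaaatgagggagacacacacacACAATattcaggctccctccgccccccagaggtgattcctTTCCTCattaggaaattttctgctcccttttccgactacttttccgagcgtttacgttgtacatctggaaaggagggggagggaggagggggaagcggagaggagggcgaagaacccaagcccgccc
Itgb1: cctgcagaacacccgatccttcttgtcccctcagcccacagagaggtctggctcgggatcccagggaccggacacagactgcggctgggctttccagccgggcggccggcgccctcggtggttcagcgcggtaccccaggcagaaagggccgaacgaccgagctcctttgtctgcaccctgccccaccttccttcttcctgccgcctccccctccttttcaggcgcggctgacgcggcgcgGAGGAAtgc

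Of the 7 windows, 2 held the RUNX word. That of Itga4 begins 60 bases before the start, and that of Itgax at base 14 of the transcript; among 32851 windows of all genes in the table, 16.76% hold the word. The purine box occurred 3 times in the Itgam window, with first bases at -84, -15 and 33, where base 1 is the start. It also occurred in the windows of Itgb7, Itga5 and Itgb1 (1 match each) and of Itgav (2 matches), and 28.28% of all windows hold it. Itgax held 1 GATA word and 1 SOX word, and Itga5 held 1 SOX word; the shares of all windows are 11.18% and 31.02%. No match overlapped another. The purine box thus stood before genes of both kinds, and a match is a run of letters, not a shown binding site.

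Total counts per library ran from 13485804 to 35250074, and each group held 1 library of at most 15429846 and 1 of at least 27516106. Sox7 stood at 314 to 379 CPM (counts scaled to library size) in the 6 Dox libraries and at 52.1 to 81.6 CPM in the 6 untreated ones. The 18 endothelial markers checked were all tested and summed to 720 to 852 RPKM in Dox libraries and 623 to 770 in untreated ones. RPKM scales reads by gene length and library size. RNA of endothelial markers was thus present in all 12. The 10 mesenchyme markers summed to 2724 to 3553 RPKM in Dox libraries and 3265 to 3653 in untreated ones. Which cells made the integrin RNAs was not tested. The spread between libraries of a group, as a biological coefficient of variation, was 4.71%.

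The levels of the 10 genes fell into 2 ranges that did not overlap. Per length, Itgb1 was highest, with a median of 363 RPKM over the 12 libraries and a range of 324 to 386. Itga5 followed at 49.5 RPKM (46.9 to 51.3), then Itgav at 26.0 (22.9 to 30.7) and Itga6 at 19.8 (18.7 to 22.2). The ranges of these 4 genes did not overlap each other or that of Itga4, at 2.58 RPKM (1.76 to 4.83). Below it came Itgb2 at 1.19 RPKM (0.699 to 4.39), Itgam at 0.574 (0.214 to 2.90), Itgb7 at 0.242 (0.153 to 0.985), Itgal at 0.0782 (0.0394 to 0.183) and Itgax at 0.0414 (0 to 0.186). From Itga4 downward, the ranges of neighbours in the order overlapped. The leukocyte genes varied most: the highest library exceeded the lowest 13.5-fold for Itgam, 6.43-fold for Itgb7, 6.28-fold for Itgb2, 4.65-fold for Itgal and 2.75-fold for Itga4, against 1.34-fold for Itgav and 1.09-fold to 1.19-fold for Itga5, Itga6 and Itgb1.

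**Figure D1:**
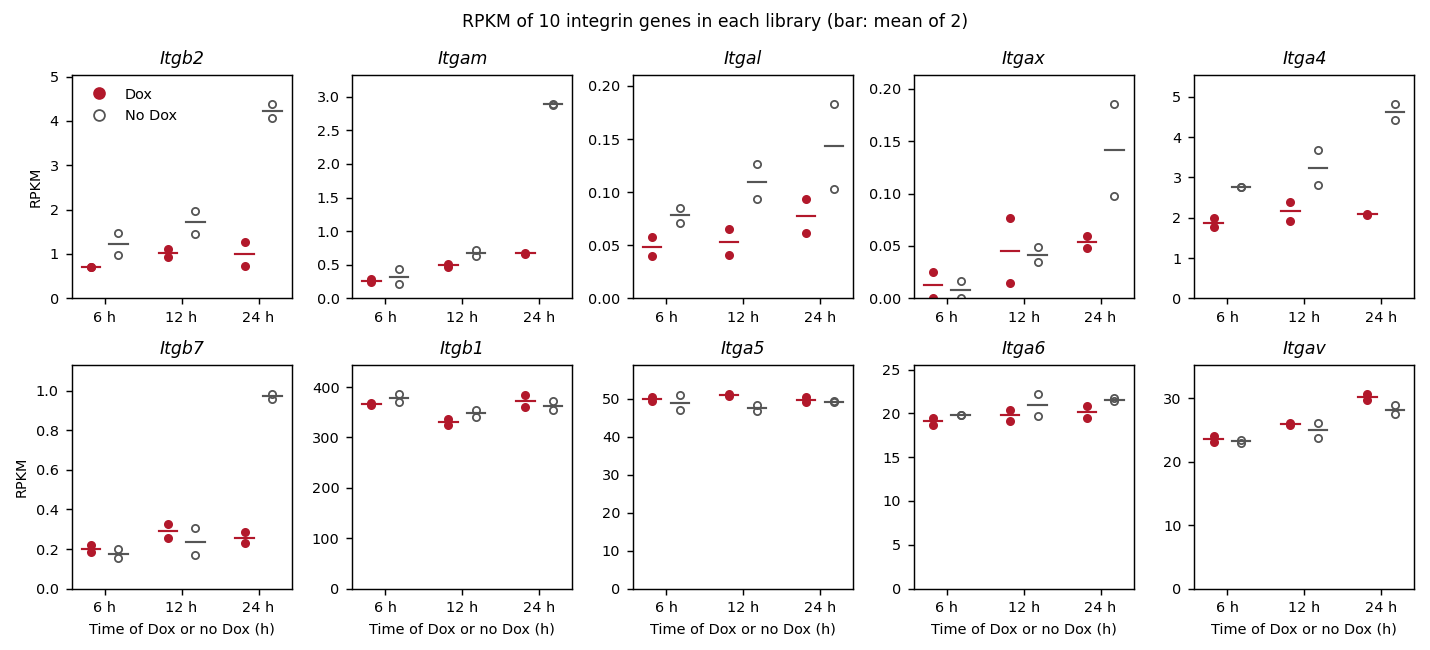
RPKM of the 10 integrin genes in each of the 12 libraries by hour, with Dox (filled, left) and without Dox (open, right); each bar is the mean of 2 libraries and each axis starts at 0. At 24 h both untreated libraries lie above both Dox libraries for Itgam, Itgb2, Itga4 and Itgb7, while the Itga5 values lie between 46.9 and 51.3 RPKM at every hour.

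The β2 subunit gene Itgb2 was lower with Dox at 24 h. At 6 h it had 0.701 and 0.699 RPKM with Dox, against 1.48 and 0.983 without. At 12 h it had 1.12 and 0.937 RPKM with Dox, against 1.97 and 1.46 without, and at 24 h 1.27 and 0.726 with Dox, against 4.07 and 4.39 without. At each hour both Dox libraries lay below both untreated ones, and at 24 h the groups stood furthest apart. The log2 fold change at 24 h was -1.99 ± 0.20 (SE), a fold of 0.252 with a 95% interval of 0.191 to 0.334 (adjusted p = 1.0e-08). All adjusted p-values for genes are Benjamini-Hochberg values over all tested genes, from the quasi-likelihood test of edgeR. The earlier differences did not pass the threshold of 0.05, at -0.86 ± 0.25 for 6 h (adjusted p = 0.082) and -0.66 ± 0.22 for 12 h (adjusted p = 0.061). In these bulk samples fewer cells that make an RNA and less of that RNA per cell cannot be told apart.

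Itgam, whose αM subunit joins β2 in Mac-1, was also lower with Dox at 24 h. At 6 h it had 0.286 and 0.241 RPKM with Dox, against 0.430 and 0.214 without, so the groups overlapped. At 12 h it had 0.470 and 0.514 RPKM with Dox, against 0.715 and 0.634 without. At 24 h it had 0.662 and 0.674 RPKM with Dox, from 141 and 66 reads, against 2.90 and 2.88 without, from 281 and 660 reads. The 24 h groups lay far apart beside the small gap within each. The log2 fold change at 24 h was -2.10 ± 0.17, a fold of 0.233 (95% interval 0.183 to 0.296, adjusted p = 1.3e-10). The values of -0.43 ± 0.26 at 6 h (adjusted p = 0.63) and -0.45 ± 0.20 at 12 h (adjusted p = 0.19) did not pass, and without the first untreated library the 6 h value turned to 0.28.

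The other partners of β2 were near the limit of detection. Itgal, for the αL subunit, had 4 to 20 reads in the 6 Dox libraries and 8 to 42 in the 6 untreated ones. Its filter limit of 0.466 CPM was reached in all 6 untreated libraries and in 1 Dox library, at 24 h, so it entered the test through the untreated libraries. At 24 h it had 0.0939 and 0.0613 RPKM with Dox, against 0.103 and 0.183 without, and the log2 fold change of -0.88 ± 0.46 did not pass (adjusted p = 0.28). The 95% interval of the fold, 0.282 to 1.05, holds both a large fall and no change. Itgax, for αX, had 0 to 12 reads with Dox and 0 to 27 without; at 24 h it had 8 and 3 reads with Dox, against 6 and 27 without. At 6 h the first Dox library and the first untreated library held 0 reads, which allows up to 0.208 CPM and 0.105 CPM (3 reads, counting error only). With no filter on low counts the Dox difference of Itgax did not pass at any hour (adjusted p = 0.97, 0.94 and 0.36 at 6, 12 and 24 h). In that fit the untreated libraries of 24 h, with 6 and 27 reads, were higher than those of 6 h, with 0 and 1 (adjusted p = 0.00051). The fit with no filter gave Itgam at 24 h an adjusted p of 4.7e-38, against 1.3e-10 in the main test. The log2 fold changes were -2.11 and -2.10, so the p-value of Itgax is not comparable with those of the main test.

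Summed per length, αL, αM and αX reached 0.815 and 0.784 RPKM with Dox at 24 h, against 3.097 and 3.25 without. Itgam made up 81.2% and 86.0% of that sum with Dox and 93.5% and 88.6% without. The sum stood to Itgb2 as 0.644 and 1.08 to 1 with Dox at 24 h and as 0.761 and 0.741 to 1 without, so the ratio of α to β RNA overlapped between the groups. At 6 h the ratio was 0.464 and 0.462 with Dox and 0.338 and 0.322 without.

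Itga4, for the α4 subunit, fell at every hour. At 6 h it had 1.99 and 1.76 RPKM with Dox, against 2.76 and 2.76 without. At 12 h it had 2.40 and 1.92 RPKM with Dox, against 3.67 and 2.81 without, and at 24 h 2.07 and 2.10 with Dox, against 4.41 and 4.83 without. The groups did not overlap at any hour, and the Dox libraries stayed within 1.76 to 2.40 RPKM throughout. The log2 fold changes were -0.55 ± 0.11 at 6 h (adjusted p = 0.0025), -0.54 ± 0.10 at 12 h (adjusted p = 0.00075) and -1.14 ± 0.10 at 24 h (adjusted p = 7.8e-10), and the fold at 24 h was 0.453 (95% interval 0.393 to 0.522). With 443 to 1298 reads per Dox library it was the most deeply counted of the leukocyte genes. Its calls at 6 h and 12 h were lost in limma's test on the deposited RPKM (adjusted p = 0.21 and 0.081 with a pseudocount of 0.1), and that at 6 h also without the first untreated library (adjusted p = 0.065) or the second Dox library (adjusted p = 0.17).

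Itgb7, for the β7 subunit that pairs with α4 on gut-homing lymphocytes, was scarce at 6 h and 12 h, with 7 to 30 reads per library. At 6 h it had 0.183 and 0.219 RPKM with Dox, against 0.153 and 0.199 without. At 12 h it had 0.254 and 0.326 RPKM with Dox, against 0.169 and 0.305 without, and the groups overlapped at both hours. At 24 h it had 0.229 and 0.285 RPKM with Dox, from 21 and 12 reads, against 0.959 and 0.985 without, from 40 and 97 reads. The 24 h difference passed the test, at -1.94 ± 0.36 on the log2 scale, a fold of 0.260 (95% interval 0.156 to 0.432, adjusted p = 0.00024). At 6 h and 12 h the log2 fold changes were 0.29 ± 0.49 (adjusted p = 0.93) and 0.12 ± 0.41 (adjusted p = 0.91), with intervals too wide to show a difference in either direction.

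The matrix-binding genes gave narrow intervals close to a fold of 1. Itgb1, the shared β subunit, had 361 and 385 RPKM with Dox at 24 h, against 355 and 372 without, a log2 fold change of 0.05 ± 0.05 (adjusted p = 0.63). Itga5, of the fibronectin receptor, had 49.2 and 50.4 RPKM with Dox, against 49.0 and 49.5 without, or 0.03 ± 0.05 on the log2 scale (adjusted p = 0.83). The groups overlapped for both genes. Itga6, of the laminin receptor, had 19.5 and 20.9 RPKM with Dox, against 21.7 and 21.4 without, and a log2 fold change of -0.09 ± 0.06 (adjusted p = 0.44). Itgav had 29.7 and 30.7 RPKM with Dox, against 27.5 and 28.9 without, and a log2 fold change of 0.11 ± 0.05 (adjusted p = 0.21). For Itga6 and Itgav the pairs of values did not overlap, by small margins. The 95% intervals of the folds at 24 h were 0.966 to 1.11 for Itgb1, 0.948 to 1.10 for Itga5, 0.869 to 1.02 for Itga6 and 1.00 to 1.16 for Itgav; these counts of 2890 to 54466 reads per library bound a change more tightly than those of the leukocyte genes.

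At 6 h and 12 h the 4 matrix-binding genes had log2 fold changes between -0.10 and 0.09, and none passed. Itgb1 had 365 and 368 RPKM with Dox at 6 h, against 386 and 370.3 without, and 324 and 336 RPKM with Dox at 12 h, against 340.4 and 355 without. Those 12 h values were the lowest Dox pair of the gene, and its log2 fold change there was -0.08 ± 0.05 (adjusted p = 0.38). Itgb1 RNA exceeded the sum of the α4, α5, α6 and αV RNAs per length in every library, by 3.28-fold to 3.91-fold with Dox and 3.46-fold to 4.16-fold without. Itga5 alone made up 48.5% to 53.0% of that α sum with Dox and 47.3% to 52.9% without. Itga4 took 2.06% and 2.02% of the sum with Dox at 24 h and 4.30% and 4.61% without.

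Counted together, 1 of the 9 tested genes fell with Dox at 6 h and 1 at 12 h, Itga4 both times, and 4 fell at 24 h, while 0 rose at any hour. Among all tested genes 0.717% fell and 0.821% rose at 6 h, 3.51% fell and 3.26% rose at 12 h, and 6.52% fell and 4.50% rose at 24 h; 1.54%, 6.76% and 11.0% changed in either direction. The 4 that fell at 24 h were all leukocyte genes, of 5 tested, and 0 of the 4 matrix-binding genes were called. The median log2 fold change at 24 h was -1.94 over the 5 leukocyte genes, 0.04 over the 4 matrix-binding genes and -0.01 over all tested genes.

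**Figure D2:**
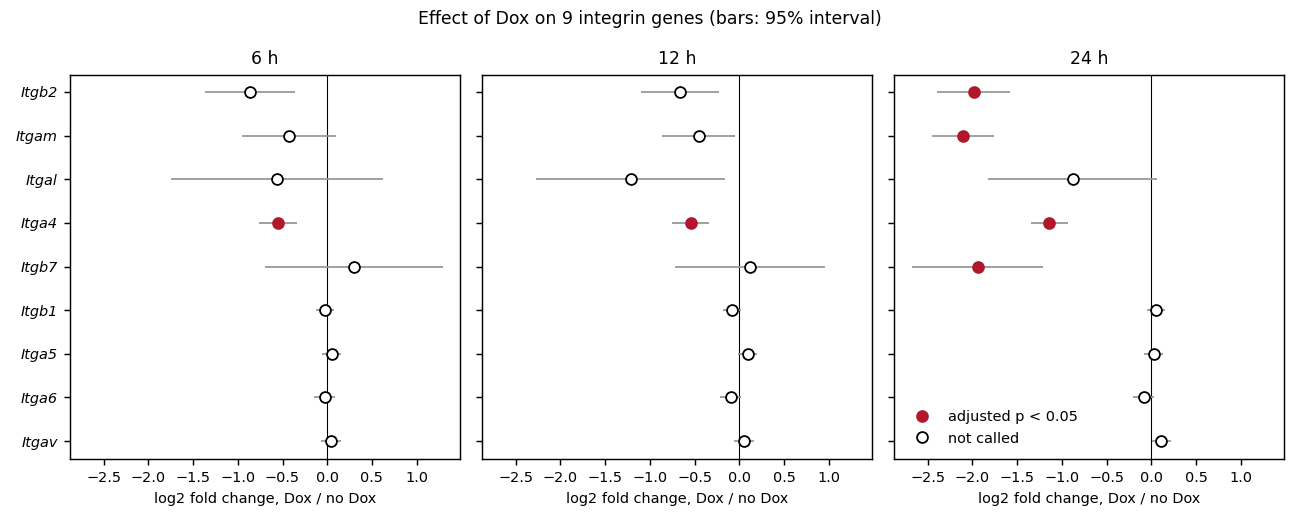
Log2 fold change, Dox over no Dox, of the 9 tested integrin genes at 6, 12 and 24 h, with 95% intervals; filled points passed the test at an adjusted p under 0.05. Itgam, Itgb2 and Itgb7 lie near -2 at 24 h and Itga4 at -1.14, while Itga5, Itga6, Itgav and Itgb1 lie between -0.10 and 0.11 at every hour.

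The gap at 24 h went with higher levels at 24 h than at 6 h in cells kept without Dox. At 24 h against 6 h without Dox, 5 of the 9 tested genes rose and 0 fell, beside 21.3% of all tested genes that rose and 19.6% that fell (40.9% in all). The 5 were Itgam, Itgb2, Itga4, Itgb7 and Itgav. Itgam rose most, with 2.90 and 2.88 RPKM at 24 h, against 0.430 and 0.214 at 6 h, a log2 fold change of 3.04 ± 0.19 or 8.21-fold (95% interval 6.29 to 10.7, adjusted p = 1.2e-13). Without the first untreated library of 6 h it was 3.74. Itgb7 rose by a log2 fold change of 2.51 ± 0.39 (adjusted p = 5.0e-06), Itgb2 by 1.72 ± 0.19 (adjusted p = 2.9e-08) and Itga4 by 0.75 ± 0.10 (adjusted p = 3.7e-07). Itgav, of the matrix-binding genes, rose by a smaller 0.28 ± 0.05 (adjusted p = 8.0e-05). Itgal had a log2 fold change of 1.00 ± 0.48 that did not pass (adjusted p = 0.095), and Itga6 had 0.13 ± 0.06 (adjusted p = 0.077).

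With Dox, 2 of the 9 tested genes, Itgam and Itgav, rose over the same interval and 0 fell, beside 19.4% of all tested genes that rose and 19.9% that fell (39.3% in all). Itgam had 0.662 and 0.674 RPKM at 24 h, against 0.286 and 0.241 at 6 h, a log2 fold change of 1.37 ± 0.23 or 2.58-fold (95% interval 1.85 to 3.58, adjusted p = 2.3e-05). Itgav rose by 0.35 ± 0.05 on the log2 scale (adjusted p = 4.2e-06). The Dox and untreated time courses of Itgav were thus both upward. Itga4 had a log2 fold change of 0.16 ± 0.11 (adjusted p = 0.26), Itgb7 of 0.28 ± 0.45 (adjusted p = 0.67) and Itgb2 of 0.60 ± 0.25 (adjusted p = 0.060), and none of the 3 passed. That of Itgb2 ran from 0.06 without the first Dox library of 24 h to 0.84 without the second.

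The change of the Dox effect between the hours was tested directly, as the effect at 24 h minus that at 6 h. It passed for 3 of the 9 genes, each time downward, beside 1.45% of all tested genes downward and 0.626% upward (2.08% in all). Itgam had a difference of -1.67 ± 0.32 on the log2 scale (adjusted p = 0.0018), which passed in all 18 alternatives tried and was -2.37 without the first untreated library of 6 h. Itga4 had -0.59 ± 0.15 (adjusted p = 0.024) and Itgb7 -2.24 ± 0.61 (adjusted p = 0.048), and these lost their calls in 8 of 18 and 13 of 17 alternatives. Itgb2 had -1.13 ± 0.32 and did not pass (adjusted p = 0.069). The matrix-binding genes lay between -0.06 and 0.08, with adjusted p-values from 0.77 to 0.95.

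The sums of the 2 kinds of gene show the scale of the difference. The 6 leukocyte genes summed to 2.999 to 3.204 RPKM with Dox at 6 h, against 4.25 to 4.90 without. At 12 h they summed to 3.77 to 4.36 RPKM with Dox, against 5.37 to 6.66 without, and at 24 h to 3.90 to 4.38 with Dox, against 12.5 to 13.5 without. The 4 matrix-binding genes summed to 459 to 487 RPKM with Dox at 24 h, against 453 to 471 without, so even there the leukocyte genes were a small part of the integrin RNA.

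Markers of blood cells moved in the same libraries, in which 6.52% of all tested genes fell and 4.50% rose at 24 h. At 24 h 11 of 14 pan-haematopoietic markers, 15 of the 16 tested of 20 myeloid markers and 10 of the 10 tested of 11 megakaryocyte markers fell with Dox, and 0 of these rose. The myeloid markers summed to 27.5 to 27.6 RPKM with Dox at 24 h, against 66.6 to 72.9 without, and the pan-haematopoietic markers to 129.9 to 144 RPKM with Dox, against 238 to 239 without. At 6 h the myeloid sums overlapped, at 16.7 to 18.8 RPKM with Dox and 16.5 to 18.5 without. Of the 16 tested myeloid markers 3 fell and 1 rose at 6 h, beside 0.717% and 0.821% of all tested genes. At that hour 4 of the 10 tested megakaryocyte markers and 2 of the 14 pan-haematopoietic markers also fell, and their sums were lower with Dox (28.6 to 29.5 RPKM with Dox against 44.7 to 44.8 without, and 138 RPKM with Dox against 152 to 161 without). Ptprc, which encodes the leukocyte antigen CD45, had 0.261 and 0.227 RPKM with Dox at 24 h, against 0.670 and 0.803 without, or -1.57 ± 0.18 on the log2 scale (adjusted p = 2.1e-07). Of 20 myeloid markers, Ly86, Elane, Ctsg and S100a8 had at most 10 reads in all 12 libraries together. Itga2b, an integrin gene described below, is itself among the megakaryocyte markers and their sums. The lists were chosen with earlier results of these data known, so these counts are descriptions. The part of these blood markers in the integrin differences was not tested.

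Markers of other cells differed in both directions at 24 h, beside 6.52% of all tested genes that fell and 4.50% that rose. Of the 18 endothelial markers 9 rose and 1, Sox18, fell at 24 h, with a median log2 fold change of 0.25 and sums of 720 to 741 RPKM with Dox, against 623 to 634 without. Cdh5, the VE-cadherin of endothelial junctions, rose by 0.50 ± 0.05 on the log2 scale (adjusted p = 5.7e-08). Among lymphoid markers, set beside Itgb7, Cd3e, Cd3g, Rag2 and Pax5 had 0 reads in all 12 libraries, and Rag1 had at most 10. Of the 3 lymphoid markers tested, 1 fell at 24 h, Il7r, by a log2 fold change of -2.24 ± 0.42 (adjusted p = 0.00033). Of 12 erythroid markers 10 fell and 1, Hbb-y, rose, with sums of 1609 to 1988 RPKM with Dox, against 2917 to 3285 without. Of 10 mesenchyme markers 5 fell and 0 rose, and their sums were 3553 RPKM in both Dox libraries, against 3561 to 3653 without.

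**Figure D3:**
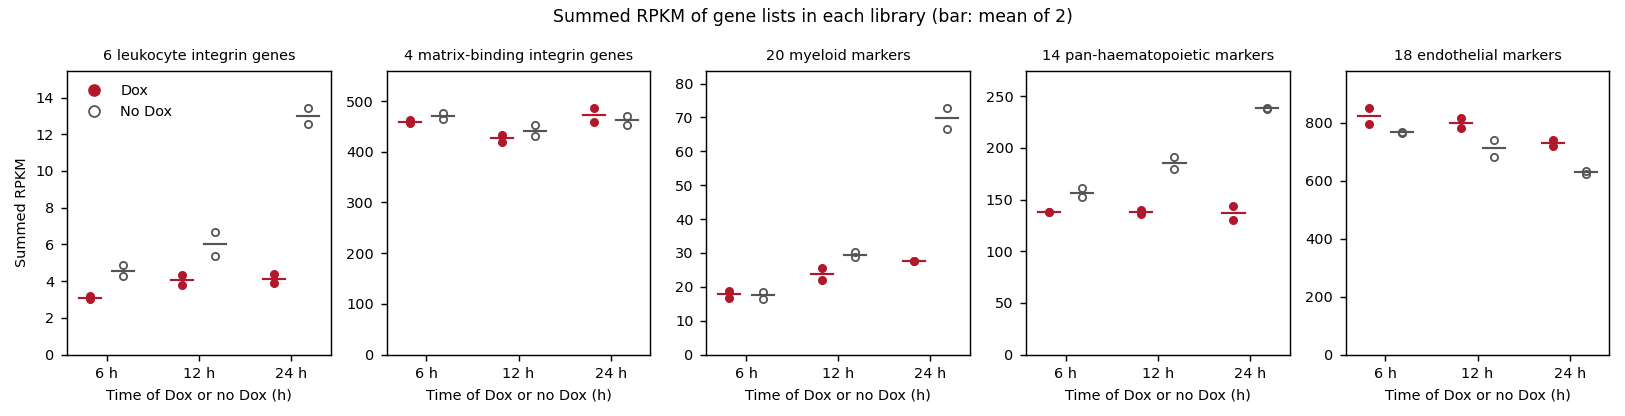
Summed RPKM of 5 gene lists in each of the 12 libraries by hour, with Dox (filled, left) and without Dox (open, right); bars are the means of 2 libraries. At 24 h the leukocyte integrins, pan-haematopoietic and myeloid sums are lower in both Dox libraries, the matrix-binding sums overlap, and the endothelial sums are higher.

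Among 16 other integrin genes, 13 were tested and 9 were called at 24 h, 4 higher and 5 lower, beside 11.0% of all tested genes. Itgb3, the β subunit that pairs with αV and with the platelet subunit αIIb, was at 24 h the most abundant of those that fell. It had 40.0 and 38.7 RPKM with Dox at 24 h, against 65.6 and 66.8 without, a log2 fold change of -0.73 ± 0.06 (adjusted p = 1.9e-10). It was lower at 6 h as well, with 29.4 and 26.5 RPKM with Dox, against 36.8 and 36.1 without (log2 fold change -0.37 ± 0.06, adjusted p = 0.00058). Itga2b, which encodes αIIb, had 7.80 and 7.80 RPKM with Dox at 24 h, against 11.1 and 11.0 without (log2 fold change -0.49 ± 0.07, adjusted p = 7.6e-06). A β partner of αV thus fell where Itgav itself did not pass the test. Itgb5, another β partner of αV, fell by 0.27 on the log2 scale (SE 0.07, adjusted p = 0.013).

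Integrins for collagen and laminin went both ways. Itga2, of the collagen receptor α2β1, rose at every hour, by 0.70 ± 0.18 at 6 h (adjusted p = 0.040), 0.67 ± 0.17 at 12 h (adjusted p = 0.017) and 1.18 ± 0.19 at 24 h (adjusted p = 2.7e-05) on the log2 scale. Itga7, a laminin receptor subunit known from muscle, rose by 0.59 ± 0.07 at 24 h (adjusted p = 1.4e-07). Itga1 (0.29 ± 0.07, adjusted p = 0.0080) and Itgb4 (1.03 ± 0.33, adjusted p = 0.041) were the other two that rose at 24 h, and are named here after their values were seen. Itga8, a receptor subunit for nephronectin, fell by a log2 fold change of -0.52 ± 0.14 (adjusted p = 0.011), and Itga3, a laminin receptor subunit, by -0.20 ± 0.07 (adjusted p = 0.041). Itgad, a further partner of β2, had 2 reads in all 12 libraries, Itgae, the partner of β7 on mucosal lymphocytes, had 46, and Itgb6 had 47; none of the 3 was tested. At 6 h 1 of the 13 rose and 1 fell, and at 12 h 3 rose and 1 fell. Of all tested genes 1.54% and 6.76% were called at these hours.

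**Figure D4:**
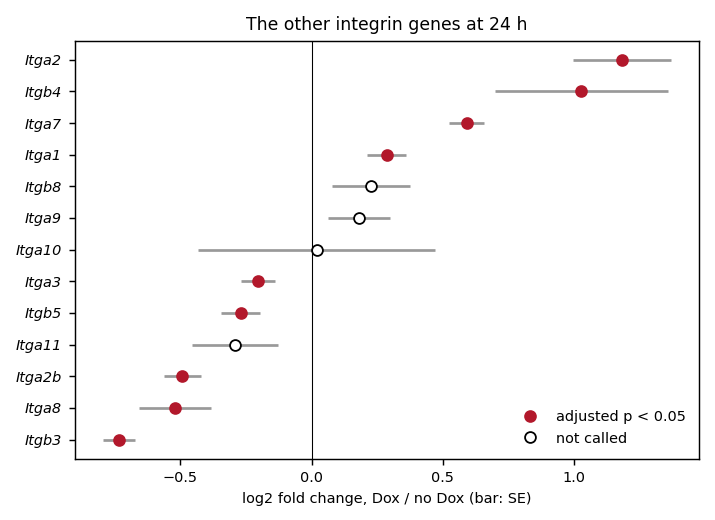
Log2 fold change, Dox over no Dox at 24 h, of the 13 other integrin genes tested, with SE; filled points passed the test. Itgb3 is lowest at -0.73 and Itga2 highest at 1.18.

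A list of 26 genes for integrin activation and adaptors, all tested, holds proteins that switch integrins on inside the cell or tie them to actin. It also holds genes of other roles, such as Cd47, for a cell-surface protein, and Itgb1bp1 and Sharpin. Of these, Cd47 is among those that fell at 24 h (log2 fold change -0.28 ± 0.06, adjusted p = 0.00067). At 24 h 10 fell and 1 rose, at 12 h 3 fell and 0 rose, and at 6 h 0 were called. Among all tested genes 6.52% fell and 4.50% rose at 24 h, and 3.51% fell and 3.26% rose at 12 h. The median log2 fold change at 24 h was -0.06, against -0.01 over all tested genes. The lowest adjusted p-values belonged to Ptk2b, the focal adhesion kinase relative PYK2 (log2 fold change -0.95 ± 0.09, adjusted p = 1.2e-09), Apbb1ip, the RAP1 effector RIAM (-1.33 ± 0.20, adjusted p = 8.9e-06), Rasgrp2, a RAP1 activator of platelets and leukocytes (-0.93 ± 0.14, adjusted p = 1.7e-05), and Lims1, an ILK partner (-0.30 ± 0.05, adjusted p = 8.1e-05). Fermt1, the kindlin of epithelia, rose by 1.43 ± 0.30 on the log2 scale (adjusted p = 0.0011). Talin-1, which binds the tails of β subunits, had -0.01 ± 0.05 for its gene Tln1 (adjusted p = 0.96). The kindlin of blood cells had -0.18 ± 0.07 for its gene Fermt3 (adjusted p = 0.12). Tln2, the other talin gene on the list, fell by a log2 fold change of -0.37 ± 0.07 (adjusted p = 0.00054). Rap1a (-0.35 ± 0.09, adjusted p = 0.011) and Rap1b (-0.33 ± 0.07, adjusted p = 0.00066) fell too. All of these were picked after their values were seen, and 15 of the 26 genes were not called.

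Ligands were read in the same way. Of 11 genes for ligands of the leukocyte integrins 9 were tested. At 24 h 3 rose and 1 fell, beside 4.50% and 6.52% of all tested genes. The 3 that rose were Icam2 (log2 fold change 0.52 ± 0.07, adjusted p = 2.6e-06), a ligand of αLβ2, Madcam1 (0.56 ± 0.10, adjusted p = 0.00016), the ligand of α4β7, and Vcam1 (0.47 ± 0.11, adjusted p = 0.0027), a ligand of α4β1. Icam1, a ligand of αLβ2 and αMβ2, fell by a log2 fold change of -0.31 ± 0.10 (adjusted p = 0.043). Vcam1 had 5.31 and 4.62 RPKM with Dox at 24 h, against 3.46 and 3.77 without, and Icam2 had 44.6 and 45.1 RPKM with Dox, against 31.8 and 31.6 without. So at 24 h, for α4 with Vcam1 and α4β7 with Madcam1, the receptor genes were lower and the ligand gene higher with Dox. Icam1 instead fell together with Itgam and Itgb2, and Itgb1, for the β partner of α4 in binding VCAM1, did not pass. At 6 h neither Vcam1 (-0.16 ± 0.11, adjusted p = 0.69) nor Madcam1 (0.09 ± 0.10, adjusted p = 0.88) was called.

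Of 14 genes for ligands of the matrix-binding integrins 13 were tested. At 24 h 3 rose and 2 fell, beside 4.50% and 6.52% of all tested genes. Spp1, the RGD protein osteopontin, fell at a log2 fold change of -1.82 ± 0.07 (adjusted p = 3.9e-17), and Tgfb1, whose latent form binds αV integrins, by -0.25 ± 0.06 (adjusted p = 0.0021). Fbn1, for fibrillin-1, rose by 0.52 ± 0.06 (adjusted p = 3.8e-07) and Lama4, for a laminin chain of vessel basement membrane, by 0.30 ± 0.06 (adjusted p = 0.0014). Lama2, another laminin chain, rose by 3.15 ± 0.69 (adjusted p = 0.0016), with the largest SE of the 13 at 24 h. At 6 h its log2 fold change was -0.56 ± 1.54 (adjusted p = 0.97), too imprecise to show a change in either direction. Its reads are not given here, and whether the rise rests on few reads was not tested. Fn1, for fibronectin, had 347 and 345 RPKM with Dox, against 329.8 and 318 without, and its log2 fold change of 0.11 ± 0.04 did not pass (adjusted p = 0.13).

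Likeness of pattern was measured as Pearson's r of log2 CPM over the 12 libraries, which share the groups and depths compared above, among 12508 genes of sufficient level. The 5 genes most like Itgb2 were Ptpn6 (r = 0.98), Sema4d (0.97), Alox5ap (0.97), Nrros (0.97) and Sash3 (0.97). Itga4 ranked 24 (0.94) and Itgam 135 (0.89) in that order. Itga6 ranked 1778 (0.54), Itgav 3907 (0.25), Itgb1 6618 (-0.10) and Itga5 10232 (-0.47). Itgb7 and Itgal were below the level needed for ranking, and their r with Itgb2 was 0.75 and 0.77. The 5 most like Itgb1 were F3 (0.91), Twf1 (0.90), Gm6645 (0.87), Tnfrsf12a (0.86) and Fez2 (0.86), over a range of Itgb1 levels of only 1.19-fold. No other integrin gene of the 10 was among them; Itga6 came first of these, at rank 3053 (0.20).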

How the data were processed

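Libraries were made with a strand-specific kit and read as single 75-base reads, per the labels' protocols. Per the submitters' processing notes, the tools were edgeR 3.8.5, R 3.1.0, Bowtie2 2.21, bcl2fastq 2.16.0.10 and SAMtools 0.1.19, and the build was GRCm38. The sources used here do not give the counting tool, its use of strand or the annotation. The authors deposited raw read counts per gene and RPKM values of the same genes. The RPKM scale of each library lay within 1.33% of its TMM-scaled size; all value columns were used (0 left out).

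Counts were fitted with edgeR 4.0.16 in R 4.3.3: filterByExpr, TMM, 1 mean per group over all 12 libraries (6 residual degrees of freedom), and the quasi-likelihood test with Benjamini-Hochberg adjustment over 15347 genes, called under 0.05. The SE is the log2 fold change over the square root of F. The 95% intervals use the t quantile at the test's total of 28.7 degrees of freedom, which include those borrowed from other genes. An exact permutation test of 2 against 2 cannot go below p = 0.333, so it was not used. The test was tried on simulated counts, but the outcome is not given here, so nothing is drawn from it. limma 3.58.1 (log2 RPKM with pseudocounts of 0.1 and 1) and DESeq2 1.42.0 were alternatives, with other scalings, filters, blocks and left-out libraries. The 10 genes and all lists were chosen with earlier results of these data known. Named from each list were up to 4 called genes by adjusted p at 24 h, and called genes against the list's median sign. Same-numbered libraries were not taken as pairs.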

Additional observations from a re-analysis of the deposited data

Results flagged for a closer look

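In 3 genes the effect of Dox differed between 24 h and 6 h by the test of that difference itself, in edgeR's quasi-likelihood fit with Benjamini-Hochberg adjustment. The difference was -1.67 on the log2 scale for Itgam (SE 0.32, adjusted p = 0.0018), -0.59 for Itga4 (SE 0.15, adjusted p = 0.024) and -2.24 for Itgb7 (SE 0.61, adjusted p = 0.048). For Itga4 the Dox effect was negative and called at both hours, and larger at 24 h. For Itgam the Dox effect was -0.43 at 6 h, not called, and -2.10 at 24 h. Without the first untreated library the 6 h value of Itgam turned to 0.28. For Itgb7 the Dox effect was 0.29 at 6 h, not called, and -1.94 at 24 h. That 6 h value rests on 8 and 18 reads with Dox and on 13 and 8 reads without.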

How the results depend on the processing

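Of 54 tested values of the 10 genes over 6 comparisons, 16 were called. Of these, 12 kept their call and sign in every alternative in which the gene was tested, and they include the 4 falls at 24 h. The 4 others were Itga4 at 6 h and at 12 h and the differences between hours of Itga4 and Itgb7, described above. Itgb7 was not tested under the filter of at least 1 CPM in 4 libraries. Its fall at 24 h thus had 13 alternatives, against 14 for that of Itgam. On log2(RPKM + 1), a scale that understates low genes, the 24 h changes were -1.22 for Itgam, -1.40 for Itgb2, -0.86 for Itga4 and -0.65 for Itgb7, all called. Itgb2 passed at 6 h with no filter or without the second untreated library, and at 12 h with no filter; its difference between hours passed in 6 of 18 alternatives. Itga6 without Dox passed for 24 h against 6 h with upper-quartile scaling (adjusted p = 0.046) and in a fit of those groups alone (adjusted p = 0.048).

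The numbers of genes called with limma on log2(RPKM + 0.1) and log2(RPKM + 1) were 78 and 67 at 6 h, against 236 in the edgeR test, and 354 and 365 at 12 h, against 1038; for the difference between hours the first gave 139, against 319. The cause was not tested. Leaving out 1 library gave 86 to 180 calls at 6 h, 423 to 754 at 12 h, 1084 to 1497 at 24 h, 175 to 280 for the difference, and 3882 to 5309 with Dox and 4204 to 5382 without Dox for 24 h against 6 h; these fits hold fewer samples.

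Sign changes occurred in 11 values, 0 of them called and 0 in the comparison of Dox against no Dox at 24 h. When 1 library was left out, the Dox effect at 6 h ran from -0.73 to 0.28 for Itgam and from -0.018 to 0.101 for Itga5, and that at 12 h from -0.12 to 0.73 for Itgb7, -0.17 to 0.0027 for Itga6 and -0.012 to 0.134 for Itgav. The difference between hours ran from -0.72 to 0.27 for Itgal, -0.0595 to 0.0576 for Itga5 and -0.0957 to 0.0164 for Itga6. The change from 6 h to 24 h with Dox ran from -0.0325 to 0.0216 for Itga5 and -0.0344 to 0.0788 for Itgb1, and without Dox from -0.0572 to 0.0591 for Itga5; upper-quartile scaling gave 0.021 for Itga5 with Dox.

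Deviations of same-numbered libraries correlated at -0.03, 0.05 and -0.01 at 6, 12 and 24 h. Same-numbered Dox and untreated libraries always differed in depth, so these values cannot decide whether replicate numbers pair the libraries. With the replicate number as a block, 249, 1071 and 1722 genes were called at 6, 12 and 24 h, 347 for the difference, and 6020 with Dox and 6248 without Dox for 24 h against 6 h. Under this block Itgb2 passed at 12 h (adjusted p = 0.025) and for the difference (adjusted p = 0.019), and Itgb7 lost its call for the difference. A block for deep and shallow libraries, chosen after seeing the data, gave 238, 1016 and 1656 calls at 6, 12 and 24 h. Depth limits Itgal, Itgax and Itgb7, with at most 42, 27 and 97 reads in a library.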
